A study of Arabidopsis thaliana with 3 samples.

Results

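Plant vacuoles are acidified by a pair of proton pumps, and the crosslinks of TSN1 on the messenger RNAs of those pumps, together with the vacuolar cation channel gene TPC1, are described here. The 6 genes are AVP1 (AT1G15690), VHA-A (AT1G78900), VHA-B1 (AT1G76030), VHA-A2 (AT2G21410), VHA-A3 (AT4G39080) and TPC1 (AT4G03560), out of 1504 target genes in the deposited list. They were chosen by function and from the deposited binding sites of the same experiment, so their numbers of sites, labels and scores are descriptions and none was tested. Of the 6 genes, 4 had binding sites, 46 in all, among 5673 in the whole series. VHA-B1 and VHA-A2 had no row in the site list and count as 0 sites.

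TSN1 is a protein with repeated nuclease-like domains and a Tudor domain, found in stress granules of plant cells. Its RNA contacts were mapped by iCLIP2, in which ultraviolet light crosslinks protein to RNA in the living plant and reverse transcription stops beside the crosslinked base. The single group comprised 3 biological replicates of Arabidopsis thaliana seedlings, 14 days old, expressing GFP:TSN1 from the TSN1 promoter in Col-0, a wild-type background. Each replicate pooled 3 plates of plants grown with 16 h of light per day, irradiated with 2000 mJ/cm2 at 254 nm, with harvest 10 h after lights on. The labelled tissue was whole plant enriched in aerial parts, and untagged TSN1 is present in this background. No control pull-down was analysed here, so TSN1 crosslinks cannot be told apart from background of the capture. The replicates were merged in the deposited lists, and no replicate value, spread or read depth can be given. RNA abundance was not measured. Of the markers checked against the tissue label, 5 of 5 leaf genes were targets, and 1 of 5 root genes was, PYK10 with 18 sites. The leaf gene with most sites, CA1, had 12. Over all annotated nuclear protein-coding genes the share with a site was 5.04%. Without RNA abundance, these counts do not settle which tissue the RNA came from.

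The vacuolar H+-pyrophosphatase AVP1 moves protons into the vacuole with the energy of pyrophosphate. The V-ATPase does the same with ATP. Its V1 sector, in the cytosol, holds the catalytic subunit A and the nucleotide-binding subunit B. Its V0 sector, in the membrane, holds subunit a and a ring of small proteolipid subunits c that carry the protons. VHA-A2 and VHA-A3 encode the a isoforms of the vacuolar membrane and are not forms of the catalytic subunit A, despite the like symbols. TPC1 encodes the calcium-regulated cation channel of the vacuolar membrane known as the slow vacuolar channel.

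The 6 genes fell into 3 kinds. AVP1 and TPC1 carried sites and called peaks along nearly the whole gene. VHA-A and VHA-A3 carried fewer, with every called peak downstream of the midpoint of the gene span. VHA-B1 and VHA-A2 had no called peak on either strand. A called peak is a single crosslinked position in the authors' list, and a binding site is a window of 5 nt that holds a called peak at its centre. Of 27444 annotated nuclear protein-coding genes, 5.04% had at least 1 binding site and 6.69% had a called peak in no coding span but their own. Because site lists chose the genes, nothing is read from 4 of 6 against that share.

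**Figure D1:**
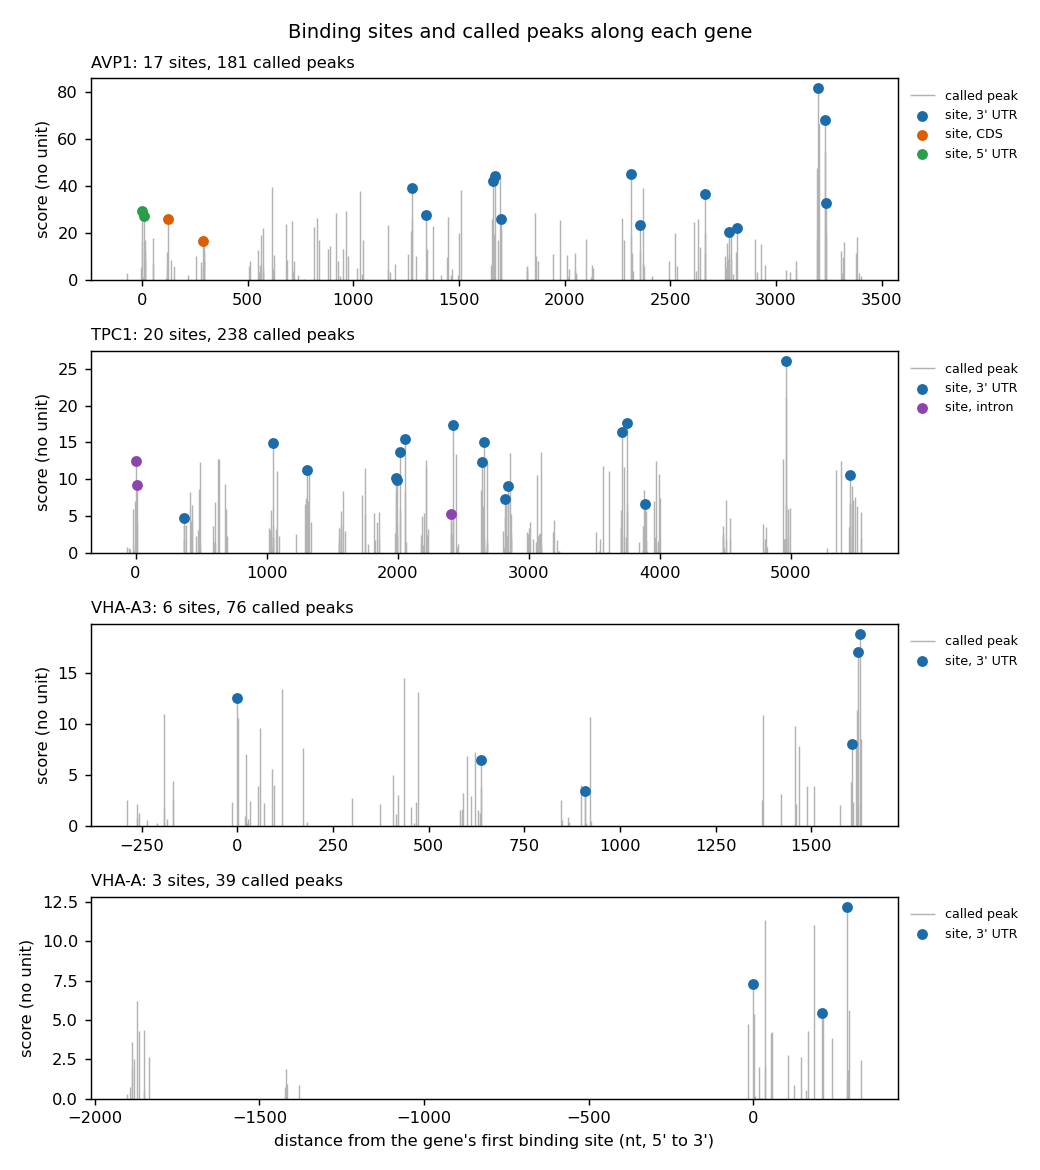
Score of each called peak (grey lines) and of each binding site (dots, coloured by the authors' region label) against the distance in nt from the gene's first binding site, one panel per gene, each with its own axes. AVP1 and TPC1 have 17 and 20 sites spread along the gene, and VHA-A has 3 sites within 290 nt.

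AVP1 had the highest scores among the 6 genes. Its 17 sites lay on the plus strand of chromosome 1 between 5399075 and 5402315 (TAIR10), a stretch of 3241 nt. The site score, the authors' value with no stated unit, had a lowest value of 16.8, a median of 29.7 and a highest value of 81.9. Every one of the 17 sites scored above 12.5, the median of all 5673 sites. Of 102 protein-coding targets with at least 10 sites, 7, AVP1 among them, had all sites above that median. Its summed score of 611 was reached by 10 of 1383 nuclear protein-coding targets, AVP1 included. It was less extreme by number of sites, where 23 of these targets, AVP1 included, had at least 17.

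The top of AVP1 lay near its 3' end. The sites at 5402275 to 5402279 and at 5402306 to 5402310 scored 81.9 and 68.1. The site at 5402311 to 5402315 directly adjoined the second of these and scored 33.1. These last 3 sites covered 41 nt and held 29.9% of the summed score of the gene. A called peak outside any site, at 5402281 and 4 nt from the centre of the top site, scored 66.9. The next highest sites stood well inside the gene, at 5401387 to 5401391 with 45.4, at 5400745 to 5400749 with 44.2 and at 5400734 to 5400738 with 42.2.

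AVP1 carried labels from all parts of the messenger RNA. The authors' table placed 2 of its sites in the 5' UTR (untranslated region), 2 in the coding sequence (CDS) and 13 in the 3' UTR. The 5' UTR sites, at 5399075 to 5399079 and 5399085 to 5399089, scored 29.7 and 27.3. Their centres were 10 nt apart. The CDS sites followed at 5399198 to 5399202 with a score of 26.0 and at 5399364 to 5399368 with 16.8, the lowest of the gene. Sites with 5' UTR, CDS and 3' UTR labels together occurred in 34 of the 1383 targets, and 12 targets had at least 2 sites in the 5' UTR. Between the second CDS site and the first one labelled 3' UTR, at 5400353, a distance of 989 nt, no site was listed. Called peaks did lie there, among them one at 5399693 that scored 39.7, higher than 12 of the gene's 17 sites, at 327 nt from the nearest site.

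TPC1 had the most sites of the 6 genes, with lower scores. Its 20 sites lay on the plus strand of chromosome 4 between 1580345 and 1585800, a stretch of 5456 nt, and 11 of the 1383 targets, TPC1 included, had at least as many. Scores ran from 4.75 through a median of 11.8 to 26.1, and 8 of the 20 exceeded the median of all sites. The summed score was 246. The scores of AVP1 and TPC1 overlapped only in part: 12 of 17 AVP1 sites were above the highest TPC1 site, and 3 of 20 TPC1 sites were above the lowest AVP1 site. The number of sites and their scores thus ranked AVP1 and TPC1 in opposite order.

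The highest TPC1 site, at 1585308 to 1585312, scored 26.1 and stood alone, with 1075 nt between its centre and that of the previous site. The next in rank, at 1584094 to 1584098 and 1582765 to 1582769, scored 17.7 and 17.4. The densest stretch lay in the middle of the gene, where, of 10 equal parts of the span, the fifth and the sixth held 4 sites each and the sixth held 46 of 238 called peaks. A group of 4 sites lay on the upstream side of this stretch. Those at 1582330, 1582339, 1582365 and 1582402, given by their starts, had scores of 10.2, 9.91, 13.7 and 15.5.

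TPC1 was one of few genes with several sites labelled intron. The 3 intron sites were at 1580345 to 1580349 with a score of 12.4, at 1580355 to 1580359 with 9.20 and at 1582749 to 1582753 with 5.36. The coding genes of the series held 98 intron sites, and 5 targets, TPC1 included, had at least 3. The first 2 of TPC1 opened the row of sites near the 5' end. The third lay 16 nt from the centre of a site labelled 3' UTR. The other 17 TPC1 sites were all labelled 3' UTR, none CDS or 5' UTR.

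The 3' UTR label did not mark the end of the gene in TPC1 or AVP1. In TPC1 it covered 5088 nt, from 1580713 to 1585800, and 7 sites so labelled lay upstream of the third intron site. Of 711 targets with at least 2 sites labelled 3' UTR, 3, TPC1 included, had a spread that wide. In AVP1 the label covered 1963 nt, and 60 of the 711 targets, AVP1 included, reached that spread. In VHA-A3 it covered 1632 nt and in VHA-A 290 nt. No exon model was used here, so which of these sites lie in the 3' UTR of the main isoform is not known. Together 39 of the 46 sites carried the label (84.8%, Wilson 95% interval 71.8 to 92.4), beside 67.0% of sites in all protein-coding genes. The interval covers counting error of sites only, which share genes. When the label was accepted only up to 500 nt from each gene's last 3' UTR site, the share became 28.3%.

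VHA-A3, for subunit a of the membrane sector, had 6 sites, all labelled 3' UTR, on the plus strand of chromosome 4 between 18213351 and 18214982. From 5' to 3' their scores were 12.6, 6.50, 3.45, 8.10, 17.1 and 18.9. The last 3, at starts 18214956, 18214972 and 18214978, lay close together, and the final 2 were the highest of the gene. Of the AVP1 sites, 16 of 17 scored above the highest VHA-A3 site. A called peak at 18213790, 199 nt from any site centre, scored 14.6, above 4 of the 6 sites.

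VHA-A, for the catalytic subunit, had the fewest sites among the genes that had any. Its 3 sites, labelled 3' UTR, lay on the plus strand of chromosome 1. The site at 29664520 to 29664524 scored 7.32, the one at 29664729 to 29664733 scored 5.44 and the one at 29664805 to 29664809 scored 12.2. None of the 3 exceeded the median of all sites. In both V-ATPase genes the site nearest to the 3' end scored highest.

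**Figure D2:**
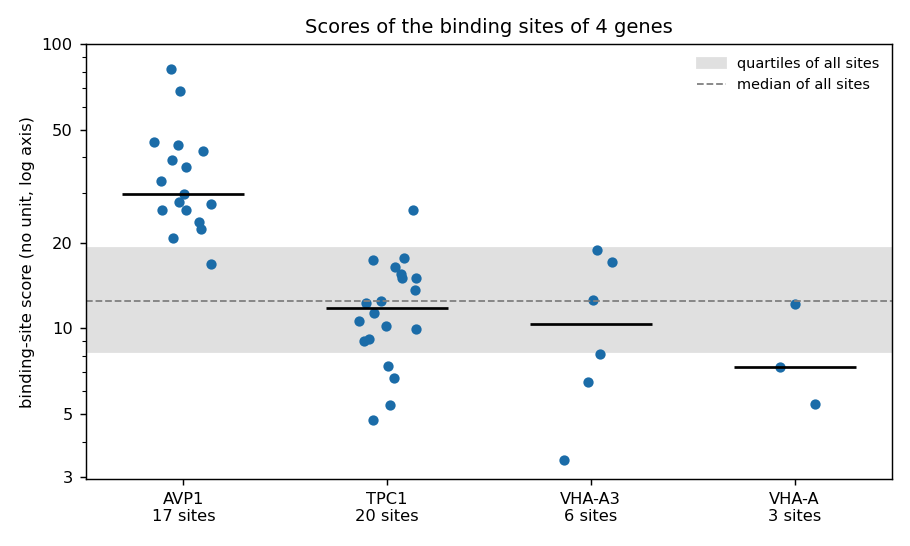
Score of each binding site on a log axis for AVP1, TPC1, VHA-A3 and VHA-A, with black lines at the gene medians (29.7, 11.8, 10.3 and 7.32), the grey band at the quartiles of all sites (8.24 and 19.1) and the dashed line at their median of 12.5. Sideways scatter only separates the dots. All AVP1 sites lie above the dashed line and all VHA-A sites below it.

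Called peaks gave the same order of genes as sites, which are centred on called peaks, so these counts are not independent. TPC1 had 238, AVP1 181, VHA-A3 76 and VHA-A 39, all on the strand of the sites and none on the other strand. By this number 6 of the 1383 targets, TPC1 included, reached TPC1, and 17, AVP1 included, reached AVP1. The median target had 36 called peaks and 2 sites. Per kb of gene span, introns included, the order changed: AVP1 had 47.5 called peaks and 4.46 sites, TPC1 39.3 and 3.30, VHA-A3 13.1 and 1.03, and VHA-A 7.81 and 0.601. The medians of all targets were 20.5 called peaks and 1.30 sites per kb, so AVP1 and TPC1 lay above them and the V-ATPase pair below.

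**Figure D3:**
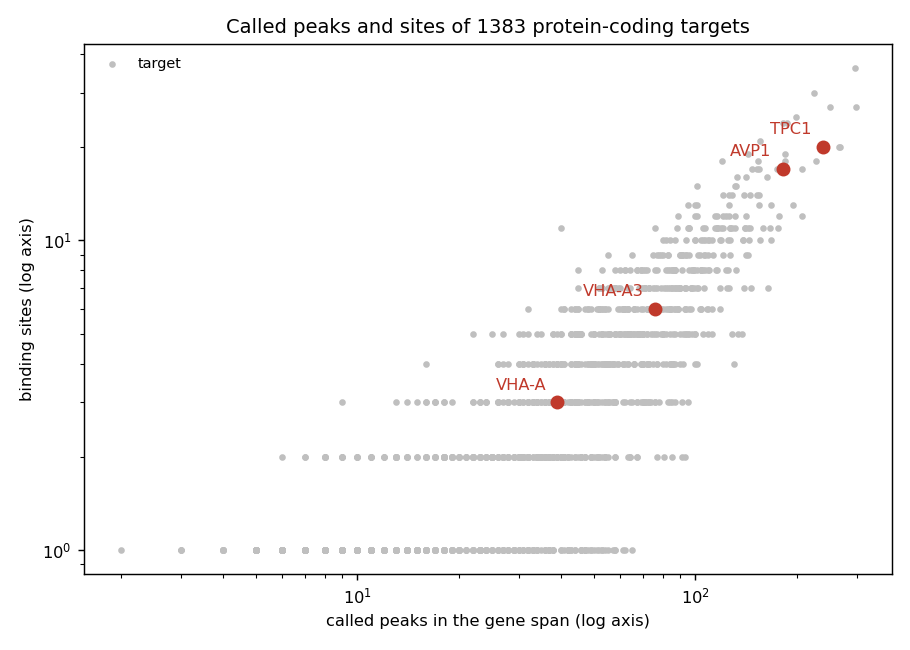
Binding sites against called peaks in the gene span, both on log axes, for 1383 nuclear protein-coding targets (grey dots), with the 4 genes that had sites in red. Targets without a called peak in their span cannot be shown on the log axis. TPC1 with 238 called peaks and AVP1 with 181 lie at the upper end, and VHA-A with 39 near the median of 36.

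The share of called peaks that lay inside sites was 44 of 238 in TPC1 (18.5%, Wilson 95% interval 14.1 to 23.9), 32 of 181 in AVP1 (17.7%, 12.8 to 23.9), 13 of 76 in VHA-A3 (17.1%, 10.3 to 27.1) and 7 of 39 in VHA-A (17.9%, 8.98 to 32.7). Over all nuclear called peaks it was 17.0%. These intervals cover counting error only and treat neighbouring peaks as independent, and with 39 peaks that of VHA-A is wide, so no likeness between the genes is read from them. The genes had between 10.6 called peaks per site in AVP1 and 13 in VHA-A, with a median of 12.2 over targets. The genes differed more in the scores of the peaks. In AVP1 142 of the 181 called peaks (78.5%) scored above the median of all called peaks, 3.78, against 43.7% in TPC1, 42.1% in VHA-A3 and 41.0% in VHA-A. The median called peak scored 10.4 in AVP1, 3.16 in TPC1, 2.88 in VHA-A3 and 2.63 in VHA-A. AVP1 peaks outside sites had a median of 8.35, above the 7.08 of TPC1 peaks inside sites, so the higher level of AVP1 was not limited to its sites.

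Called peaks lay on adjacent bases more often in AVP1 and TPC1, where they were also denser, than in the V-ATPase pair. Of neighbouring pairs, 21.1% in AVP1 and 23.6% in TPC1 were adjacent, against 12.0% in VHA-A3 (9 pairs) and 10.5% in VHA-A (4 pairs). No such share over all targets is given here, so it is not read as a trait of these genes. The longest unbroken run was 5 nt in AVP1, from 5401845 to 5401849, and 4 nt in TPC1, from 1581650 to 1581653, while neither V-ATPase gene had more than 2 in a row. The TPC1 run lay inside a site that scored 11.3, and the AVP1 run lay just before a site that scored 20.7.

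Along the gene, AVP1, TPC1, VHA-A3 and VHA-A separated into whole-length and 3' patterns. AVP1 had 95 called peaks upstream of the midpoint of its span and 86 downstream of it, and TPC1 had 107 and 131. VHA-A and VHA-A3 had none upstream of the midpoint and all 39 and 76 downstream. Of 644 targets with at least 39 called peaks, 14 (2.17%), both V-ATPase genes included, had none upstream of the midpoint. This count was made after the values were seen. The first VHA-A3 peak, at 18213066, was followed by peaks over 1919 nt. VHA-A had 15 called peaks upstream of its first site, and a stretch of 1364 nt without any peak divided them. The highest of the upstream peaks, at 29662651, scored 6.22 and lay 1871 nt from the nearest site.

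**Figure D4:**
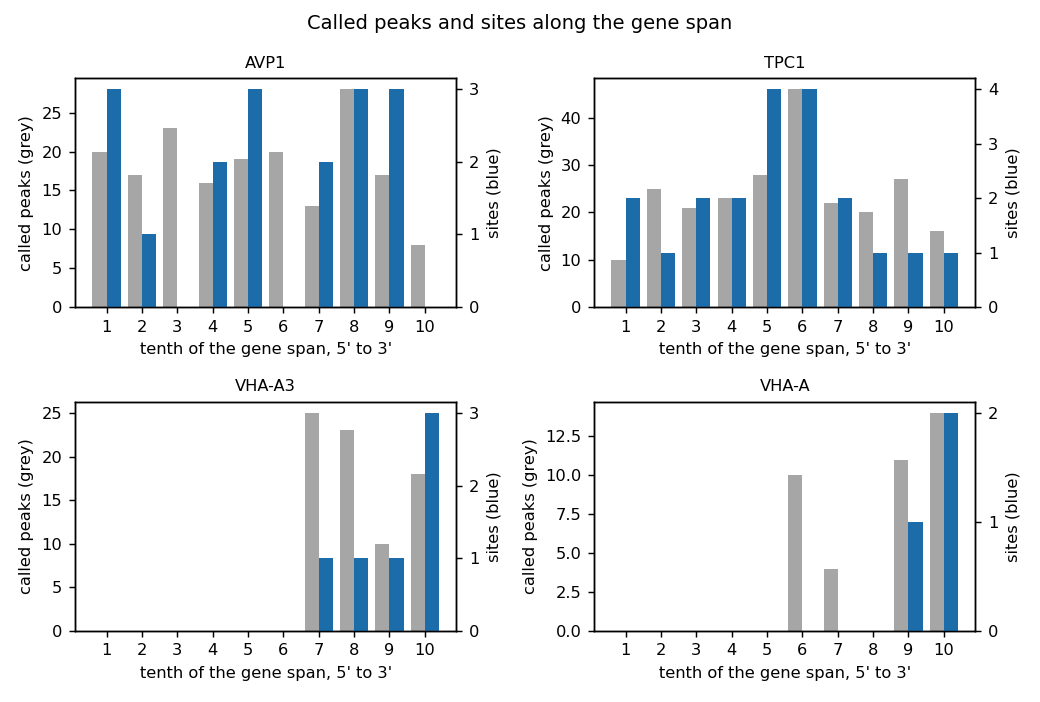
Number of called peaks (grey bars, left axis) and of binding sites (blue bars, right axis) in each of 10 equal parts of the gene span, introns included, from 5' to 3'. VHA-A3 has no bar before the seventh part and VHA-A none before the sixth, while AVP1 and TPC1 have called peaks in every part.

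The relative position of the sites ran from 0 at the 5' end of the span to 1 at the 3' end. Each site is centred on a called peak, so with no peak upstream of the midpoint the V-ATPase pair could have no site there. The positions of the sites are therefore not separate support for the 3' pattern. The median was 0.486 in AVP1 (0.0397 to 0.890) and 0.468 in TPC1 (0.0691 to 0.970). It was 0.898 in VHA-A3 (0.681 to 0.961) and 0.930 in VHA-A (0.889 to 0.946). The median of all sites in coding targets was 0.631, between these pairs. AVP1 and TPC1 shared 0.626 of their site distribution over 10 equal parts of the span, taken as the sum of the smaller share in each part. Among 101 other targets with at least 10 sites, the distribution most like that of AVP1 was BGAL4, a beta-galactosidase gene with 17 sites (shared 0.765, median over the targets 0.523). The most like TPC1 was FNR2, a ferredoxin-NADP oxidoreductase gene with 15 sites (0.800, median 0.600).

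The rest of the V-ATPase was represented mainly by its proton-carrying ring. A list of 31 proton pump genes, comprising the V-ATPase subunits, AVP1 and its paralogs AVP2-1 and AVP2-2 of other endomembranes, held 14 genes with a site and 18 with a called peak. Without the genes described above, 11 of 26 had a site (42.3%), beside 5.04% of all annotated coding genes. Expression was not measured, and its part in this share was not tested. By sector, the V0 genes had sites in 9 of 14 cases with 38 sites, and the V1 genes in 4 of 14 with 8 sites. These sector counts include VHA-A, VHA-B1, VHA-A2 and VHA-A3. Over the whole list of 31, the median gene with a site had 3 sites and a median score of 9.29. Over all coding targets these were 2 sites and 10.4.

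The proteolipid c genes held 24 of the 38 V0 sites. VHA-c2 (AVA-P2 in the files) had 8 sites on chromosome 1 between 6913719 and 6914500, all labelled 3' UTR, with a median score of 8.09. VHA-c1 (AVA-P1) had 7, of which 4 were labelled 3' UTR and 3 CDS, with a median of 8.52. VHA-c3 had 6, with 3 of each label and a median of 9.40. VHA-c5 had 3 sites, scoring 8.28, 20.8 and 24.2, of which the last was the highest site score among the V-ATPase genes listed, ahead of 22.7 in VHA-c3. VHA-c4 had 5 called peaks and no site. The c genes encode nearly identical proteins, and reads may not separate their copies, so which gene a site belongs to is uncertain. The spans of VHA-c2, VHA-c3 and VHA-c5 also overlapped 1 other annotated span each. Among the other subunits with called peaks, those of VHA-B3, VHA-c''1 and VHA-e2 did so too. Those of VHA-c''2 and VHA-F overlapped 2 each. Per kb of span VHA-c2 had 4.90 sites and VHA-c1 4.54, beside 4.46 in AVP1.

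Among the other ring and membrane subunits, VHA-c''1 had 3 sites labelled 3' UTR (median 9.58) and VHA-c''2 had 3 labelled CDS (median 7.88). VHA-e1 and VHA-e2 had 1 each, scoring 0.487 and 9.19. The a isoform VHA-a1, known from the trans-Golgi network, had no called peak, like VHA-A2 and unlike VHA-A3. VHA-d1 and VHA-d2, which join the ring to the stalk, had none either.

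In the V1 sector, only labels of 3' UTR occurred. VHA-E1, a subunit of the peripheral stalk, had 2 sites (11.3 and 13.2), VHA-H, a regulatory subunit, had 2 (2.96 and 11.2) and VHA-F, of the central stalk, had 1 (11.0). VHA-B3 had 12 called peaks, VHA-D 13 and VHA-G1 13, without a site. VHA-B1, VHA-B2 and VHA-C, the gene known as DET3, had no called peak, nor had VHA-E2, VHA-E3, VHA-G2 and VHA-G3. Subunits that work together in 1 complex therefore ranged from 0 to 76 called peaks in these lists. They also differed in position. Upstream of the midpoint of the span lay 37 of 57 called peaks in VHA-c5, 19 of 63 in VHA-c1 and 18 of 45 in VHA-c2. VHA-c''2, with 34 called peaks, and VHA-H, with 15, had none there, like VHA-A and VHA-A3. RNA abundance, which was not measured, and binding cannot be told apart.

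**Figure D5:**
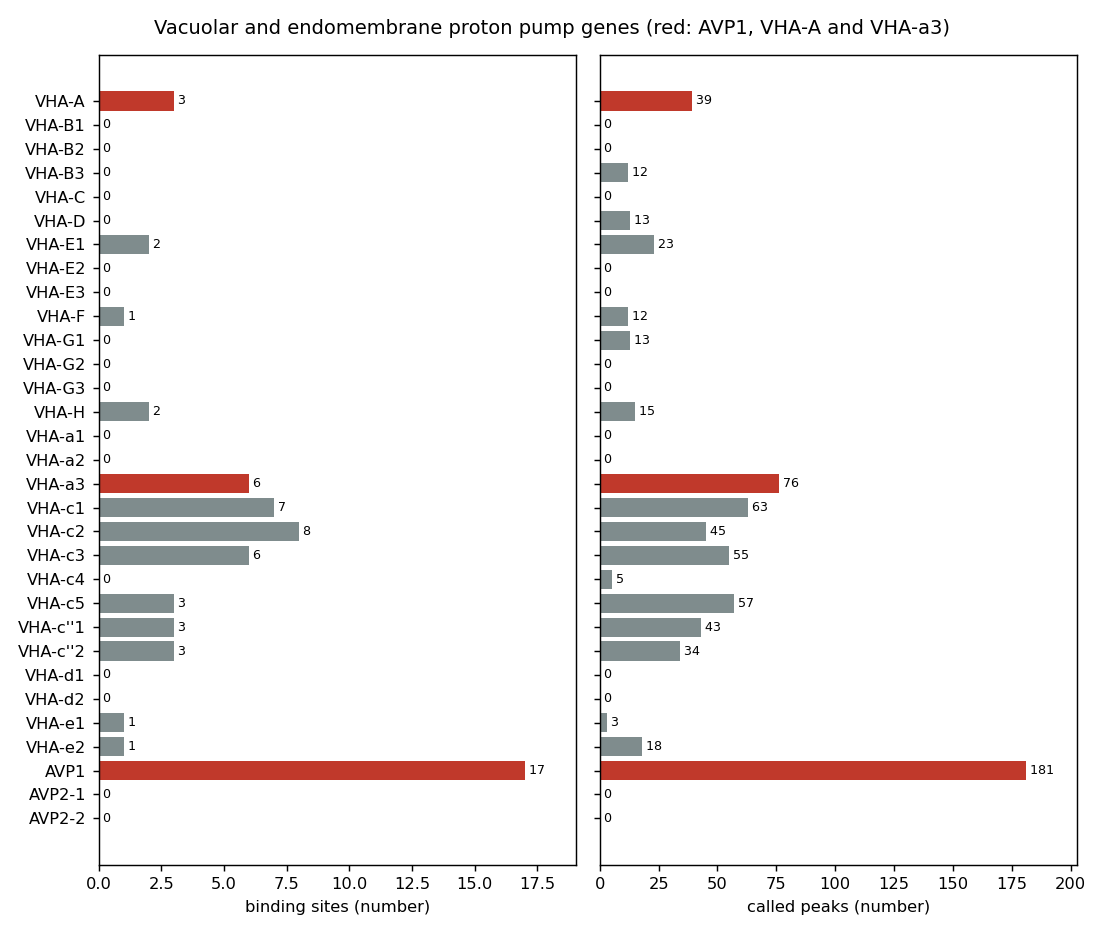
Number of binding sites (left) and of called peaks (right) for 31 proton pump genes, V1 subunits above, V0 subunits below them and pyrophosphatases at the bottom, with AVP1, VHA-A and VHA-a3 (VHA-A3) in red. AVP1 has 17 sites and 181 called peaks, and 13 of the genes have no called peak.

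Other transporters of the vacuolar membrane resembled TPC1 in part. Of 21 such genes besides TPC1, 5 had a site (23.8%), with 35 sites in all, beside 5.04% of all annotated coding genes. A called peak anywhere in the span occurred in 9. The share of 6.69% over all coding genes counts only called peaks that lie in a single coding span, so it is not a like measure. Here too expression was not measured. CAX1, a calcium and proton exchanger, had 16 sites with a lowest score of 5.66, a median of 11.5 and a highest of 14.1. They lay on chromosome 2 between 15989277 and 15992602, with 13 labelled 3' UTR and 3 CDS. TDT, the malate transporter, had 12 sites with a median of 11.1 and a top of 17.6. CLC-A, the nitrate and proton exchanger, had 130 called peaks but 4 sites, with a median score of 6.95. NHX1, a sodium, potassium and proton exchanger, had 2 sites and TMT1, a sugar transporter, 1. The span of CLC-A overlapped 1 other annotated span and that of TMT1 overlapped 2. TPC1 stood first of the 22 genes by sites and called peaks, with CAX1 next at 141 called peaks. The highest site score among the other 21 was 17.6, below the 26.1 of TPC1, while the highest called peak of CAX1, outside its sites, scored 19.3. CAX1 and TDT had called peaks on both sides of the midpoint, with 64 of 141 and 22 of 114 upstream of it.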

How the data were processed

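The series holds 1 group of 3 replicates, and every deposited list pools them. The submitters' processing notes name STAR 2.7.3a, UMI-tools 1.0, FastQC 0.11.5, bedtools 2.27.1 and SAMtools, with TAIR10 as the build. Not given in the sources used here are the peak caller, how region labels were assigned, how replicates were merged and how reads with several matches were handled. The deposited score of each site and called peak is the authors' value with no stated unit, and was used only within these lists. The deposited count of sites per target equalled the listed sites for the genes described.

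Sites were taken by gene identifier. Called peaks were assigned by gene spans of a TAIR10.1 table, whose span for the named gene contained 99.8% of 5208 sites, and none of its coordinates is printed. AVP1's span overlapped 2 others, which held none of its peaks. No sequence or exon model was used. Wilson 95% intervals (statsmodels 0.14.6) were computed for the shares of sites labelled 3' UTR and of called peaks inside sites, other shares are given without one, and nothing was tested. The peak placement was tried on simulated positions.

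The genes, the 2 lists compared with them and the naming rule were chosen with earlier results of these data known. The rule named the 6 genes, the genes with a site on either list and the target most like AVP1 or TPC1 among those with at least 10 sites. Pump genes without a site and single sites or peaks were named after their values were seen. The alternatives left out genes, joined sites or raised the score threshold.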

Additional observations from a re-analysis of the deposited data

How the results depend on the processing

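Of 27 alternative values for 7 results, 17 stayed within 1.5 times the count, inside the Wilson interval of the share or within 1 SD over the 4 genes with sites. The 10 others follow. The 46 sites became 28 with scores above the median of all sites, 29 with sites within 50 nt joined, 26 without TPC1 and 29 without AVP1. The 534 called peaks became 294 with scores above the median of all peaks, 296 without TPC1 and 353 without AVP1. The share of sites labelled 3' UTR became 28.3% with the label kept within 500 nt of its last site. The share of called peaks inside sites, 18.0%, became 26.2% for peaks above the median. Pump genes with a site became 7 of 31, from 14, with scores above the median of all sites. Fewer genes, sites or peaks entered each of these counts by construction, and for the share of peaks inside sites the cause was not tested. The median site score of 16.0 was 24.8 without TPC1 and 11.3 without AVP1, and the median position of 0.537 was 0.754 without TPC1, so both rest on which of these genes is counted. Leaving out AVP1 was added after seeing the data. Leaving out a replicate was not possible with pooled lists. Depth is unknown.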

Other observations

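The authors' site identifiers are numbered along each strand, and some numbers within the range of a gene are not among that gene's listed sites. Whether these numbers occur under another gene or outside genes was not looked up. In TPC1 the numbers ran from 4223 to 4247, 25 in all, of which 5 were not among its sites. In AVP1 this held for 2 of 19 and in VHA-A for 1 of 4, while VHA-A3 lacked none of 6. Called peaks outside sites that scored above the gene's own median site numbered 13 in TPC1, 7 in AVP1, 6 in VHA-A3 and 2 in VHA-A.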
